A study of Mus musculus with 12 samples.

Results

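The genes described here are 40 mouse genes of the hypoxia response and of glycolysis, taken from a list of glycolytic enzymes, glucose and lactate transporters and targets of the hypoxia-inducible factors (HIF). A gene entered when an array probe set carried its symbol and no other, and the brightest such probe set, by its mean over all arrays, stood for the gene. By this rule 37 of the 40 genes were measured, of 19938 genes in the series as a whole. Gapdh, Gpi1 and Eno1 had no probe set of their own and have no value here. The measured genes fell by role into 13 glycolytic enzymes, 3 regulators of glycolytic flux, 3 sugar and lactate carriers, 2 enzymes of glycogen synthesis, 4 HIF alpha subunits and prolyl hydroxylases and 12 other HIF targets.

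The study profiled whole jejunum, the middle stretch of the small intestine, from mice in which Fgfr1op, a centrosomal gene now named Cep43, can be knocked out by tamoxifen (KO) and from wild-type (WT) mice. Tissue was taken 6, 9 and 12 days after tamoxifen, and the 6 groups (KO and WT at each day) held 2 mice each, with 1 array per mouse. Tamoxifen in corn oil was injected on 5 days in a row at a dose of 75 mg per kg; the protocol text is shared by all samples and does not say separately whether the WT mice were injected. The driver of the recombinase, the deleted part of the gene, the age of the mice and whether the WT mice were littermates do not appear in the sources used here. Each value is a log2 signal of a one-colour Affymetrix array, so a difference of 1 means 2 times the signal.

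Cells sense oxygen through prolyl hydroxylases (the Egln genes), which mark the HIF alpha subunits Hif1a and Epas1 (HIF-2 alpha) for destruction while oxygen is present. When oxygen falls, the alpha subunits pair with Arnt and bind the short core sequence of hypoxia response elements near target genes, among them most glycolytic enzymes, the glucose transporter Slc2a1 and the lactate exporter Slc16a3. Much of this control acts on the HIF proteins, which an RNA array does not measure. The intestinal villus is known as a tissue of naturally low oxygen towards its lumen, and its absorptive cells move dietary glucose through carriers other than Slc2a1.

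The core letters that HIF binds, ACGTG and GCGTG, were searched on both strands of RefSeq promoter windows (assembly GRCm38.p6), each running from 250 bases before to 50 bases after a gene's start. Of the 40 listed genes 37 had a window, 12 of them more than 1; Epas1, Ndrg1 and Slc2a3 are named only. The promoters of 32 of the 37 genes (86.5%) held at least 1 match, against 46.7% of all genes with a window and 64.1% of genes with windows of similar GC content. For ACGTG alone the shares were 67.6%, 21.8% and 27.1%, and for GCGTG alone they were 62.2%, 35.2% and 52.8%. The symmetric E-box CACGTG, which contains ACGTG and is also the binding sequence of other factors, occurred in 13.5%, 8.09% and 10.9%. A gene counted if any of its windows matched, and the 37 genes had 55 windows. Windows outside the GC range were dropped from the third share only, so the shares per gene are not fully alike. Per window the shares were 74.5%, 43.8% and 62.4% for either core and 52.7%, 19.6% and 25.9% for ACGTG. For GCGTG they were 50.9%, 32.4% and 50.9%, and for the E-box 9.09%, 7.15% and 10.3%. A match is a string of letters and not a shown binding site, and many of these genes were listed because they were known HIF targets, so the share is a description of the list.

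Stretches of 6 promoters are shown: those of Fam162a, Slc2a1, Slc16a3, Pgk1 and Bnip3, which were higher in KO at day 9, and that of Ldha, a long-known HIF target whose signal did not pass the test on any day. Capitals mark each match, written ACGTG or GCGTG on the printed strand and CACGT or CACGC where the match lies on the other strand, with overlapping matches run together. The stretches are Fam162a at chr16:36071562-36071659 (minus strand), Slc2a1 at chr4:119108645-119108744 (plus strand), Slc16a3 at chr11:120949007-120949066 (plus strand), Pgk1 at chrX:106186930-106187029 (plus strand), Bnip3 at chr7:138909537-138909636 (minus strand) and Ldha at chr7:46845654-46845803 (plus strand). All lie upstream of the annotated start, and that of Slc2a1 also overlaps the predicted gene Gm52706.
Fam162a: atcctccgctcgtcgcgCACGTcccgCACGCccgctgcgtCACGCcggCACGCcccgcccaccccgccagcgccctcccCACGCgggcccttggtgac
Slc2a1: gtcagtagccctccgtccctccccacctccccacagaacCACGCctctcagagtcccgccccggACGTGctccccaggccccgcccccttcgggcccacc
Slc16a3: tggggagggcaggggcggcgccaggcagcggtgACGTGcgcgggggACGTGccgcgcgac
Pgk1: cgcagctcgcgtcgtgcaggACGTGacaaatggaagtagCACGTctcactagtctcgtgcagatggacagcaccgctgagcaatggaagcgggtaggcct
Bnip3: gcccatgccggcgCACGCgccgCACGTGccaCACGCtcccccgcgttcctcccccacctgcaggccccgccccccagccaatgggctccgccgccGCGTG
Ldha: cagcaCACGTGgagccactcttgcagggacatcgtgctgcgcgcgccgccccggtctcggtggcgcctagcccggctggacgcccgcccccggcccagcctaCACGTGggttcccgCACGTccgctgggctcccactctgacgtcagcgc
The printed stretches held 5 matches in Fam162a, 4 in Bnip3, 3 in Ldha and 2 each in Slc2a1, Slc16a3 and Pgk1. Of the genes called higher in KO at day 9, 19 had a window and all 19 held a match, and of the measured genes not called higher 11 of 15 did (73.3%). The median number of matches in the window with most matches was 2 in both sets.

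In KO jejunum 7 of 12 HIF targets outside glucose metabolism, the carriers Slc2a1 and Slc16a3 and 6 of 13 glycolytic enzymes were higher than in WT at day 9. By day 12 the KO minus WT difference of 11 of the 37 genes was lower than at day 9 in limma's test of that change, and that of 3 was higher, against 2.02% lower and 4.06% higher among all genes. Of the 37 measured genes, 20 were called higher and 4 lower in KO than in WT at day 9, and 13 did not pass. Here and below a gene was called at a limma adjusted p under 0.05, adjusted over 19938 genes. Among all genes 12.6% were called higher and 17.1% lower at day 9. At day 12, 16 of the 37 were called higher, 5 lower and 16 did not pass, against 13.7% higher and 13.7% lower among all genes. At day 6 only Slc16a3 and Pfkfb4 were called, both higher, against 0.597% higher and 0.431% lower among all genes. The median KO minus WT difference of the 37 genes was 0.02 at day 6, 0.50 at day 9 and 0.15 at day 12, against 0.00, 0.02 and 0.02 over all genes. At both later days 14 genes were called higher and 2 lower. Higher calls at day 9 without one at day 12 numbered 6, and the reverse 2. The overlap between days was not counted over all genes, so these counts only describe the list. In whole tissue, fewer cells of a type and less RNA per cell cannot be told apart.

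**Figure D1:**
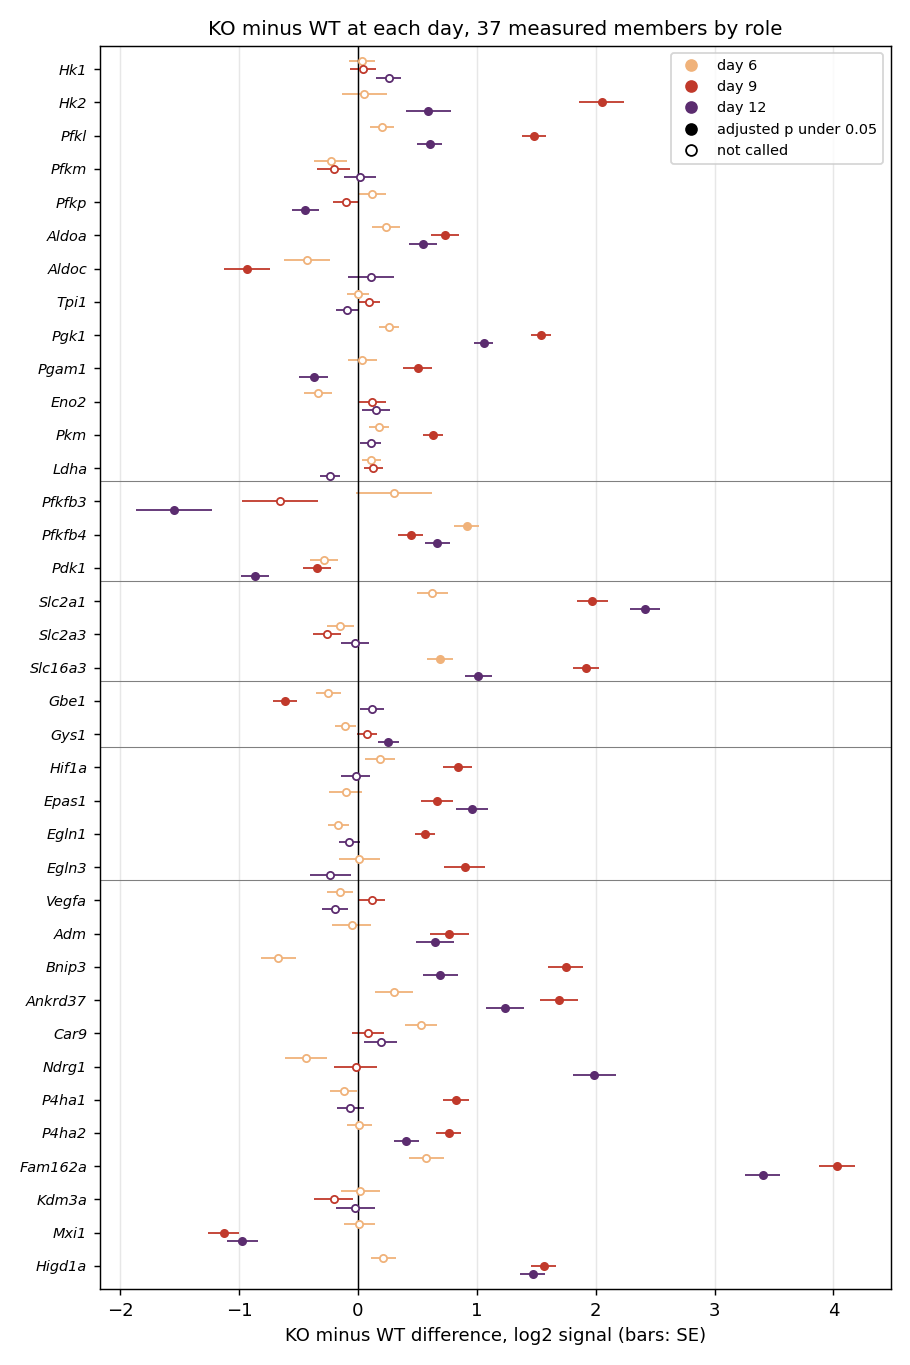
KO minus WT difference in log2 signal (horizontal axis) of the 37 measured genes, grouped by role from the top (glycolytic enzymes, regulators, carriers, glycogen synthesis, HIF alpha subunits and prolyl hydroxylases, other HIF targets), at days 6, 9 and 12, with SE bars from limma on 2 mice per group. Filled points were called and open ones were not; most day 6 points lie near 0, Fam162a lies farthest to the right at day 9 (4.03) and day 12 (3.41), and Ndrg1 stands at 1.99 at day 12 with no difference called at day 9.

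The HIF alpha subunits and their prolyl hydroxylases were all 4 higher in KO at day 9, and Epas1 alone was called at day 12. Hif1a, the alpha subunit of HIF-1, had log2 signals of 10.26 and 10.62 in KO at day 9, against 9.57 and 9.63 in WT, and of 9.77 and 9.86 in KO at day 12, against 9.81 and 9.86 in WT. Both KO arrays thus lay above both WT arrays at day 9 and overlapped them at day 12. Hif1a was 1.79-fold higher at day 9 (log2 difference 0.84, SE 0.12, limma adjusted p = 0.000389), and its difference at day 12 was -0.02 (95% interval from -0.29 to 0.25). The change in this difference between days 9 and 12, -0.86, passed its own test (SE 0.17, limma adjusted p = 0.019). At day 6 the KO signals of 10.00 and 9.81 lay just above the 9.80 and 9.64 of WT, and the difference of 0.19 did not pass.

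Epas1, which encodes HIF-2 alpha and in the intestine is known to drive iron uptake genes, followed another course. Its signals were 9.27 and 9.49 in KO at day 9, against 8.60 and 8.82 in WT, and at day 12 it had 9.89 and 10.24 in KO, against 9.09 and 9.12 in WT. KO was above WT without overlap on both days, by 0.67 (SE 0.14, limma adjusted p = 0.00333) and 0.96 (SE 0.14, limma adjusted p = 0.000267). At day 6 the KO signals of 8.86 and 8.81 overlapped the 9.06 and 8.81 of WT.

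Egln1 and Egln3, the oxygen sensors PHD2 and PHD3 and themselves known HIF targets, were higher in KO at day 9. Egln1 had signals of 8.43 and 8.44 in KO at day 9, against 7.81 and 7.93 in WT, and of 7.93 and 7.92 in KO at day 12, against 8.07 and 7.93 in WT. Egln3 had 10.13 and 10.15 in KO at day 9, against 9.15 and 9.33 in WT, and at day 12 it had 8.96 and 9.50 in KO, against 9.60 and 9.33 in WT. The day 9 groups were apart and the day 12 groups were not. The day 9 differences were 0.56 for Egln1 (SE 0.09, limma adjusted p = 0.000545) and 0.90 for Egln3 (SE 0.17, limma adjusted p = 0.00217), and the fall of these differences by day 12 passed for both, at -0.64 (limma adjusted p = 0.0153) and -1.13 (limma adjusted p = 0.0235). Without KO day 12 replicate 2 the Egln3 difference at day 12 was -0.50 and was called, against -0.23 with all arrays. At day 6, Egln1 had 7.76 in both KO arrays, against 7.93 in both WT arrays, a difference that did not pass (-0.16, limma adjusted p = 0.513), and Egln3 had 9.66 and 9.34 in KO, against 9.56 and 9.41 in WT.

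**Figure D2:**
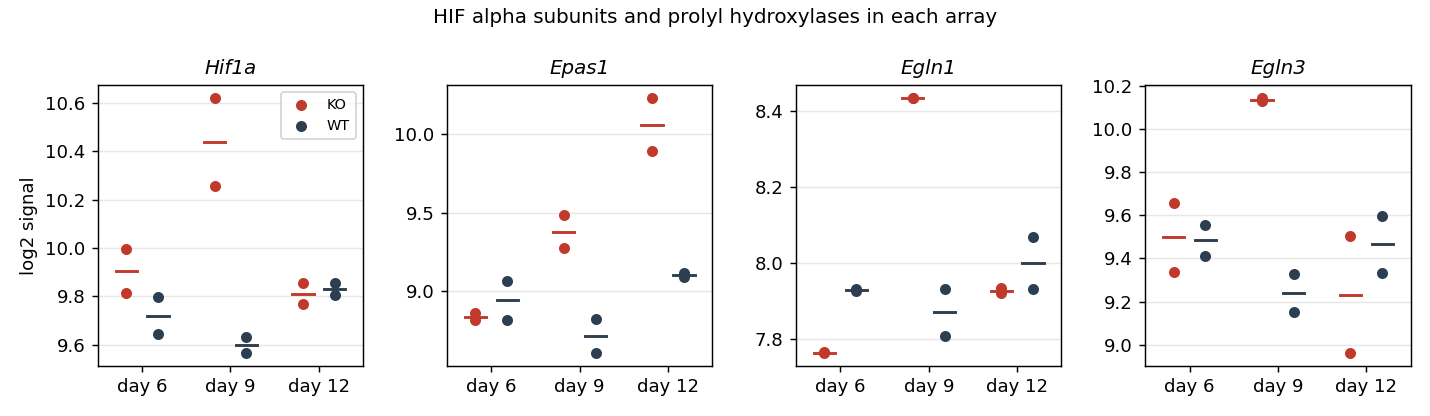
Log2 signal (vertical axis) of Hif1a, Epas1, Egln1 and Egln3 in each of the 12 arrays at days 6, 9 and 12, with KO in red left of WT in dark blue and a bar at each group mean of 2 mice. The KO points stand above the WT points in all 4 panels at day 9 and in the Epas1 panel alone at day 12; each panel has its own axis, which does not start at 0.

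Of the 12 other HIF targets, 7 were called higher and 1 lower in KO at day 9, and again 7 and 1 at day 12. Fam162a, a mitochondrial protein induced by low oxygen, showed the largest difference of the 37 genes. Its log2 signals were 11.52 and 11.58 in KO at day 9, against 7.55 and 7.50 in WT, and at day 12 it had 11.23 and 10.85 in KO, against 7.60 and 7.67 in WT. KO was 16.3-fold higher at day 9 (log2 difference 4.03, SE 0.15, limma adjusted p = 1.57e-08) and 10.6-fold higher at day 12 (3.41, SE 0.15, limma adjusted p = 3.47e-08). At day 6 the 8.07 and 8.46 of KO already lay above the 7.58 and 7.81 of WT, by a difference of 0.57 that did not pass (limma adjusted p = 0.112).

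Bnip3, a mitochondrial protein that takes part in mitophagy, changed side between days. It had signals of 6.54 and 6.76 in KO at day 6, against 7.26 and 7.38 in WT. At day 9 it had 9.32 and 9.22 in KO, against 7.34 and 7.71 in WT, and at day 12 8.44 and 8.26 in KO, against 7.82 and 7.49 in WT. KO lay below WT at day 6 and above it at days 9 and 12, with no overlap on any day. The day 6 difference of -0.67 did not pass (limma adjusted p = 0.0625), while those of 1.75 at day 9 (SE 0.15, limma adjusted p = 6.91e-06) and 0.69 at day 12 (SE 0.15, limma adjusted p = 0.00426) did. The difference between the day 9 and day 6 values, 2.42, passed its own test. With the mean of the Bnip3 probe sets in place of the brightest, the day 6 value was called lower, and without WT day 12 replicate 2 the day 12 difference was 0.53 and did not pass.

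Ankrd37, an ankyrin repeat protein known as a HIF-1 target, and Higd1a, a protein of the inner mitochondrial membrane induced by hypoxia, were higher at both later days. Ankrd37 had signals of 8.26 and 8.35 in KO at day 9, against 6.75 and 6.47 in WT, and of 8.08 and 8.09 in KO at day 12, against 6.77 and 6.92 in WT. Higd1a had 7.94 and 7.76 in KO at day 9, against 6.30 and 6.27 in WT, and at day 12 it had 7.81 and 7.84 in KO, against 6.44 and 6.28 in WT. Neither gene's groups overlapped on either day. Ankrd37 differed by 1.69 at day 9 (SE 0.16, limma adjusted p = 1.7e-05) and 1.24 at day 12 (SE 0.16, limma adjusted p = 0.000142), and Higd1a by 1.56 (SE 0.11, limma adjusted p = 1.39e-06) and 1.47 (SE 0.11, limma adjusted p = 1.52e-06). Another Higd1a probe set was higher in KO by 0.99 at day 9 and 0.91 at day 12. At day 6 Ankrd37 had 6.71 and 7.09 in KO, against 6.38 and 6.82 in WT, and Higd1a had 6.49 and 6.73 in KO, against 6.39 in both WT arrays, and neither was called.

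Ndrg1, a stress-responsive gene of epithelial differentiation, was the late riser of the targets. Its signals were 9.40 and 9.27 in KO at day 9, against 9.18 and 9.54 in WT, and at day 12 it had 11.06 and 11.21 in KO, against 9.29 and 9.01 in WT. The groups overlapped at day 9 and stood far apart at day 12, where KO was 3.97-fold higher (log2 difference 1.99, SE 0.18, limma adjusted p = 8.86e-06). The rise of the difference between days 9 and 12, 2.01, passed its own test (limma adjusted p = 0.00246), in contrast to the falls of Hif1a and Egln3 over the same days. At day 6 Ndrg1 had 8.55 and 8.76 in KO, against 8.83 and 9.37 in WT (-0.44, limma adjusted p = 0.358).

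Mxi1, a partner of MAX that opposes Myc and is a HIF-1 target in other cells, ran the other way. It had signals of 7.52 and 7.61 in KO at day 9, against 8.70 and 8.68 in WT, and of 7.66 and 7.92 in KO at day 12, against 8.84 and 8.69 in WT. KO was lower without overlap, by -1.13 at day 9 (SE 0.13, limma adjusted p = 6.74e-05) and -0.97 at day 12 (SE 0.13, limma adjusted p = 0.000169). At day 6 the KO values of 8.38 and 8.75 enclosed the WT values of 8.52 and 8.58.

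The remaining targets had smaller differences. P4ha1 and P4ha2, the catalytic subunits of the collagen prolyl hydroxylase, rose in KO at day 9 by 0.82 (limma adjusted p = 0.000239) and 0.76 (limma adjusted p = 0.00026). At day 12 the difference of P4ha1 was -0.06 (95% interval from -0.31 to 0.18) and that of P4ha2 0.41 (limma adjusted p = 0.0138), which fell to 0.26 without KO day 12 replicate 1 and to 0.35 without WT day 12 replicate 1 and then did not pass. Adm, the vasodilator adrenomedullin, rose by 0.77 at day 9 (limma adjusted p = 0.0041) and 0.65 at day 12 (limma adjusted p = 0.011). Without WT day 9 replicate 2 the Adm difference at day 9 was 0.60, and without WT day 12 replicate 2 that at day 12 was 0.36, and neither passed. Vegfa, the main angiogenic growth factor under HIF control, differed by 0.12 at day 9 (95% interval from -0.13 to 0.36) and by -0.19 at day 12 (from -0.44 to 0.05). Kdm3a, a histone demethylase, differed by -0.20 and -0.02, and Car9, a carbonic anhydrase of the cell surface widely used as a hypoxia marker in tumours, by 0.09 and 0.19, and none of these passed. At day 6 Car9 had 9.40 and 9.27 in KO, against 8.63 and 8.98 in WT, a difference of 0.53 that did not pass (limma adjusted p = 0.114). In KO its change between days 6 and 9 was -0.40 (limma adjusted p = 0.0541). Averaged over the 3 days Car9 was higher by 0.27 (limma adjusted p = 0.0214), a call that ended without any 1 of KO day 6 replicate 1, KO day 9 replicate 2 and replicate 1 of each WT day (0.21 to 0.26).

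**Figure D3:**
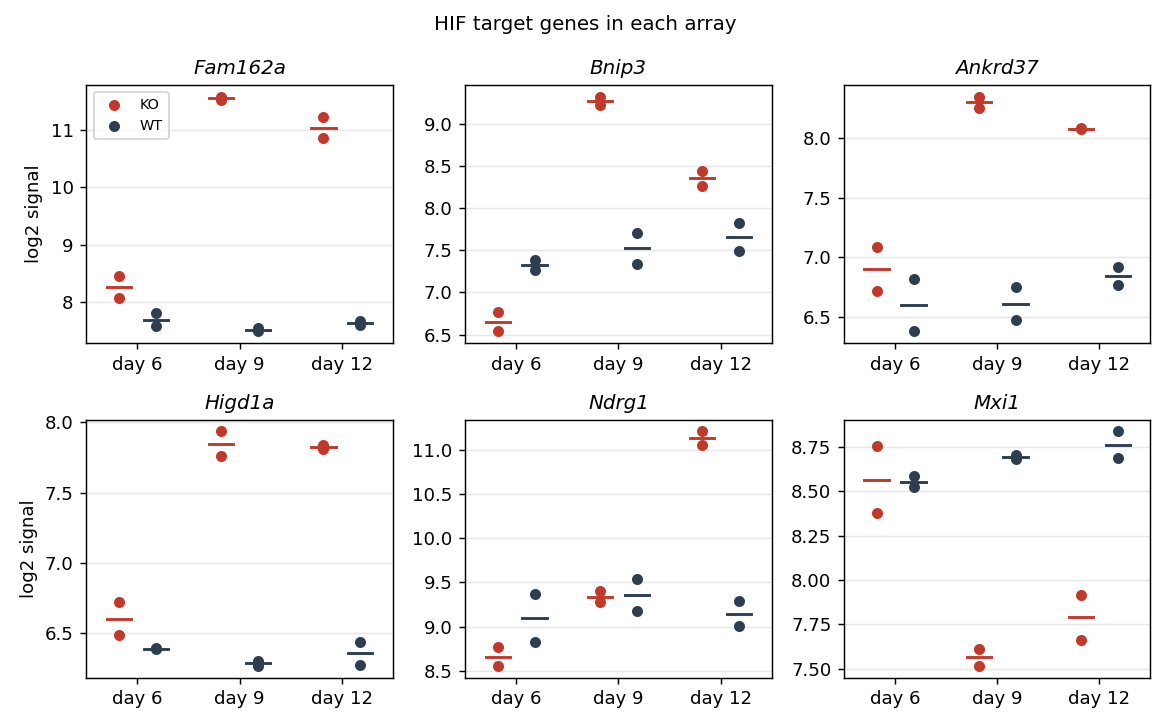
Log2 signal (vertical axis) of 6 HIF targets in each of the 12 arrays at days 6, 9 and 12, with KO in red left of WT in dark blue and a bar at each group mean of 2 mice. Fam162a, Bnip3, Ankrd37 and Higd1a stand above WT at days 9 and 12, Ndrg1 at day 12 alone, and Mxi1 lies below WT at days 9 and 12; each panel has its own axis, which does not start at 0.

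Among the carriers, the glucose transporter Slc2a1 (GLUT1) and the lactate exporter Slc16a3 (MCT4) were higher in KO, and the neuronal-type glucose transporter Slc2a3 (GLUT3) was not called. Slc2a1 had log2 signals of 9.40 and 9.51 in KO at day 6, against 8.75 and 8.91 in WT, of 10.65 and 11.01 in KO at day 9, against 8.91 and 8.81 in WT, and of 11.40 and 11.16 in KO at day 12, against 8.92 and 8.81 in WT. KO lay above WT without overlap on every day. Slc2a1 was 3.91-fold higher at day 9 (log2 difference 1.97, SE 0.13, limma adjusted p = 1.16e-06) and 5.33-fold higher at day 12 (2.41, SE 0.13, limma adjusted p = 1.69e-07). Its day 6 difference of 0.62 had an adjusted p of 0.0505 in limma and was called in 8 of the 21 alternative settings, and it was 0.38 with the mean of 10 smooth muscle markers as a covariate (limma adjusted p = 0.664).

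Slc16a3 had signals of 8.21 and 8.38 in KO at day 6, against 7.56 and 7.65 in WT, of 9.48 and 9.78 in KO at day 9, against 7.67 and 7.75 in WT, and of 8.71 and 8.74 in KO at day 12, against 7.76 and 7.66 in WT. KO was above WT on every day. The differences were 0.69 at day 6 (SE 0.11, limma adjusted p = 0.0171), 1.92 at day 9 (limma adjusted p = 4.19e-07) and 1.01 at day 12 (limma adjusted p = 3.78e-05). The drop of its difference from day 9 to day 12, -0.91, passed its own test (limma adjusted p = 0.0098), and the 0.45 by which the Slc2a1 difference grew did not (limma adjusted p = 0.184). Slc2a3 differed by -0.15, -0.26 and -0.02 at days 6, 9 and 12, and without KO day 9 replicate 1 its day 9 difference was -0.40 and was called. Over all 12 arrays genotype was permuted exactly within days, testing the KO minus WT difference averaged over the 3 days. The smallest two-sided p of this permutation test is 0.00926. This permutation p was reached by Fam162a, Higd1a, Slc2a1, Slc16a3, Pgk1, Pfkl, Aldoa, Pkm and Pfkfb4, and by Pdk1, which was lower in KO. It was larger for the other genes of the list, with a permutation p of 0.0648 for Hif1a, 0.167 for Bnip3 and 0.296 for Ndrg1. The differences of Bnip3 (-0.67, 1.75 and 0.69 at days 6, 9 and 12) and Ndrg1 (-0.44, -0.02 and 1.99) changed sign between days. A permutation of the average does not test the difference at a single day. The share of all genes that reach the smallest value was not computed.

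Of the 13 glycolytic enzymes, 6 were called higher in KO and 1 lower at day 9, and 4 higher and 2 lower at day 12. The steps differed: hexokinase 2, liver phosphofructokinase and phosphoglycerate kinase were higher by more than 1 on the log2 scale at day 9, and triosephosphate isomerase and lactate dehydrogenase A were not called. Hk2, the hexokinase that HIF-1 is known to induce, had signals of 10.53 and 10.84 in KO at day 9, against 8.95 and 8.33 in WT, and of 9.39 and 8.98 in KO at day 12, against 8.65 and 8.53 in WT. The KO arrays were above the WT arrays on both days, far at day 9 and narrowly at day 12. The difference was 2.05 at day 9 (SE 0.19, limma adjusted p = 1.32e-05), or 4.15-fold, and 0.59 at day 12 (SE 0.19, limma adjusted p = 0.0371). At day 12 Hk2 lost its call without KO day 12 replicate 1 (0.39), without either WT array of that day (0.65 and 0.53) and without either KO day 6 array. At day 6 Hk2 had 8.52 and 8.47 in KO, against 8.47 and 8.41 in WT.

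Pfkl, the liver form of phosphofructokinase, had signals of 8.90 and 8.85 in KO at day 9, against 7.39 and 7.40 in WT, and of 8.25 and 7.99 in KO at day 12, against 7.53 and 7.51 in WT. Pgk1, the phosphoglycerate kinase that makes the first ATP of glycolysis, had 11.87 and 11.86 in KO at day 9, against 10.33 in both WT arrays, and 11.56 and 11.54 in KO at day 12, against 10.47 and 10.51 in WT. For both genes the groups were apart on both days. Pfkl differed by 1.48 (SE 0.10, limma adjusted p = 1.6e-06) and 0.60 (SE 0.10, limma adjusted p = 0.000992), and Pgk1 by 1.54 (SE 0.08, limma adjusted p = 2.81e-07) and 1.06 (SE 0.08, limma adjusted p = 2.98e-06). At day 6 Pfkl had 7.53 and 7.60 in KO, against 7.27 and 7.45 in WT, and Pgk1 had 10.64 and 10.58 in KO, against 10.41 and 10.30 in WT. These day 6 groups were apart as well, by 0.20 and 0.26, and neither difference passed.

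Aldoa, the aldolase of glycolysis in most tissues, had signals of 11.89 and 11.92 in KO at day 9, against 11.19 and 11.15 in WT, and of 11.84 and 11.46 in KO at day 12, against 11.17 and 11.03 in WT. Pkm, the pyruvate kinase of proliferating and muscle cells, had 10.96 in both KO arrays at day 9, against 10.33 and 10.32 in WT, and at day 12 it had 10.57 and 10.54 in KO, against 10.45 in both WT arrays. KO lay above WT for both genes on both days, and the Pkm gap at day 12 was small. The day 9 differences were 0.74 for Aldoa (SE 0.12, limma adjusted p = 0.000696) and 0.63 for Pkm (SE 0.09, limma adjusted p = 0.000222). At day 12 Aldoa differed by 0.55 (SE 0.12, limma adjusted p = 0.00445), or 0.36 without KO day 12 replicate 1, and Pkm by 0.11 (95% interval from -0.08 to 0.29). At day 6 Aldoa had 11.14 and 11.24 in KO, against 10.94 and 10.96 in WT, and Pkm had 10.38 and 10.45 in KO, against 10.31 and 10.17 in WT, and neither was called.

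Aldoc, the aldolase best known from brain, was the 1 enzyme lower in KO at day 9. Its signals were 6.06 and 6.02 in KO at day 9, against 6.78 and 7.16 in WT, and at day 12 it had 6.65 and 7.13 in KO, against 6.96 and 6.60 in WT. The KO arrays were below the WT arrays at day 9 and overlapped them at day 12. Aldoc differed by -0.93 at day 9 (SE 0.19, limma adjusted p = 0.00384) and by 0.11 at day 12, and the change between the days, 1.05, passed its own test (limma adjusted p = 0.048). At day 6 Aldoc had 6.22 and 6.52 in KO, against 6.62 and 6.97 in WT (-0.43, limma adjusted p = 0.425).

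Pgam1, a phosphoglycerate mutase, was higher by 0.50 at day 9 (limma adjusted p = 0.0101) and lower by -0.37 at day 12 (limma adjusted p = 0.0438), and the turn of -0.88 passed its own test (limma adjusted p = 0.0181). Both Pgam1 calls depended on single arrays. That of day 9 ended without KO day 9 replicate 1 (0.39) and without either WT array of the day (0.50 each). That of day 12 ended in 9 of the 12 fits with 1 array left out, the lowest size being -0.18 without KO day 12 replicate 2. Pfkp, the platelet form of phosphofructokinase, differed by -0.10 at day 9 and fell by 0.44 at day 12 (limma adjusted p = 0.0113), or by 0.30 with no call without KO day 12 replicate 1, and leaving out WT day 12 replicate 1 or 2 ended its call too.

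Ldha, which makes lactate from pyruvate and is a classic HIF target, had signals of 12.89 and 12.92 in KO at day 9, against 12.79 and 12.76 in WT, and of 12.49 and 12.51 in KO at day 12, against 12.75 and 12.71 in WT. The groups were apart on both days, in opposite directions and by little. The difference was 0.13 at day 9 (95% interval from -0.05 to 0.31) and -0.24 at day 12 (limma adjusted p = 0.0508), which 5 alternative settings called lower. Tpi1, triosephosphate isomerase, differed by 0.10 (95% interval from -0.11 to 0.30) and -0.09, Eno2, the neuronal enolase, by 0.12 and 0.15, and Pfkm, the muscle phosphofructokinase, by -0.20 and 0.02, and none of these passed.

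Hk1, the hexokinase of most tissues, depended on the probe set. The brightest one, which the rule took, listed a single accession that also appears on some of the 16 probe sets carrying both Hk1 and the ribosomal protein gene Rpl17, and it differed by 0.04 at day 9 and 0.26 at day 12, neither called. A second probe set with RefSeq accessions of Hk1 had 8.55 and 8.43 in KO at day 9, against 7.35 and 7.47 in WT, and at day 12 it had 8.72 and 8.79 in KO, against 7.49 and 7.50 in WT. On it KO was above WT by 1.08 (limma adjusted p = 1.34e-05) and 1.26 (limma adjusted p = 3.2e-06). The counts of called genes above use the brighter probe set.

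**Figure D4:**
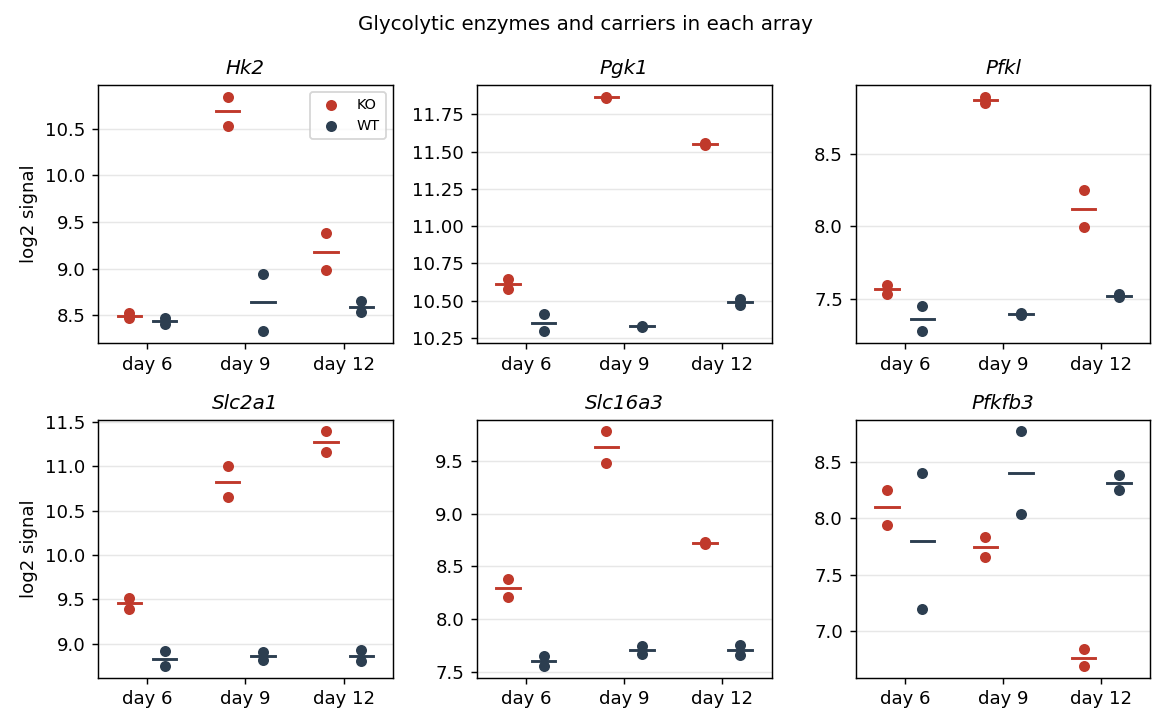
Log2 signal (vertical axis) of Hk2, Pgk1, Pfkl, Slc2a1, Slc16a3 and Pfkfb3 in each of the 12 arrays at days 6, 9 and 12, with KO in red left of WT in dark blue and a bar at each group mean of 2 mice. The first 5 genes peak in KO at day 9 or, for Slc2a1, at day 12, while Pfkfb3 in KO falls below WT; each panel has its own axis, which does not start at 0.

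The 3 regulators of flux did not move together. Pfkfb3 and Pfkfb4 make fructose 2,6-bisphosphate, the activator of phosphofructokinase, and Pdk1 inhibits pyruvate dehydrogenase. All are known HIF targets. Pfkfb3 had signals of 7.66 and 7.83 in KO at day 9, against 8.77 and 8.04 in WT, and of 6.84 and 6.69 in KO at day 12, against 8.38 and 8.25 in WT. KO was below WT without overlap on both days, by -0.66 (95% interval from -1.36 to 0.04) and by -1.55 (SE 0.32, limma adjusted p = 0.00346). At day 6 Pfkfb3 had 7.94 and 8.25 in KO, against 8.40 and 7.19 in WT. Without either of these WT arrays the day 9 difference, still -0.66, was called (limma adjusted p = 0.0331).

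Pfkfb4 was higher on each day. It had signals of 9.84 and 9.98 in KO at day 6, against 8.88 and 9.12 in WT, of 9.77 and 9.79 in KO at day 9, against 9.34 and 9.33 in WT, and of 9.48 and 9.61 in KO at day 12, against 8.81 and 8.94 in WT. The groups stood apart throughout, by 0.91 (SE 0.10, limma adjusted p = 0.00252), 0.44 (limma adjusted p = 0.00766) and 0.67 (limma adjusted p = 0.000546), with no call for a difference between days (limma adjusted p = 0.102 for the interaction).

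Pdk1 was lower in KO, opposite to most HIF targets on the list. Its signals were 7.78 and 7.60 in KO at day 9, against 8.15 and 7.92 in WT, and at day 12 it had 6.93 and 7.19 in KO, against 7.98 and 7.87 in WT. KO lay below WT on both days. Pdk1 fell by 0.87 at day 12 (SE 0.12, limma adjusted p = 0.000201), a call that held in every setting tried, and by 0.34 at day 9 (SE 0.12, limma adjusted p = 0.0491). The day 9 call ended without any 1 of 9 of the 12 arrays, with a difference of -0.23 without WT day 9 replicate 1. At day 6 Pdk1 had 7.29 and 7.41 in KO, against 7.63 and 7.65 in WT, and was not called.

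The 2 glycogen enzymes, Gbe1 and Gys1, differed in course. Gbe1, the branching enzyme, had signals of 6.05 and 6.22 in KO at day 9, against 6.72 and 6.78 in WT, and of 7.15 and 7.31 in KO at day 12, against 7.19 and 7.02 in WT. Gys1, the glycogen synthase of most tissues outside liver, had 7.30 and 7.39 in KO at day 9, against 7.30 and 7.23 in WT, and at day 12 it had 7.66 and 7.70 in KO, against 7.38 and 7.47 in WT. Gbe1 was below WT at day 9 and overlapped it at day 12, and Gys1 stood above WT at day 12. Gbe1 fell by 0.61 at day 9 (SE 0.10, limma adjusted p = 0.0009), and the gain of its difference by day 12, 0.73, passed its own test (limma adjusted p = 0.0164). The Gys1 difference of 0.26 at day 12 (SE 0.09, limma adjusted p = 0.0455) was lost when any 1 of 10 arrays was left out, with values from 0.21 to 0.30. At day 6 Gbe1 had 6.64 and 6.56 in KO, against 6.81 and 6.89 in WT, and Gys1 had 7.19 and 7.23 in KO, against 7.35 and 7.28 in WT, and neither was called.

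At day 6 the 2 calls, Pfkfb4 and Slc16a3, fell together with a low smooth muscle signal in the KO arrays. The mean of 10 smooth muscle markers, relative to its WT mean, was -1.08 and -1.26 in KO at day 6, against 0.61 and -0.11 in WT at that day, and ran from -0.77 to 0.61 over the 6 WT arrays. With this mean as a covariate Pfkfb4 (0.77, against 0.91 without it, limma adjusted p = 0.181) was not called. Nor was Slc16a3 (0.49, against 0.69, limma adjusted p = 0.493), and over the whole array 21 genes were called in place of 205. Both KO arrays of day 6 lay below all 6 WT arrays on this mean. Covariate and genotype therefore cannot be well told apart at that day, and the part of smooth muscle in the calls was not tested. Without KO day 6 replicate 2 Pfkfb4 (0.85) also lost its call, and Slc16a3 lost it without either KO array or WT replicate 1 of day 6 (0.61 to 0.77). No gene of the list was called lower at day 6 by limma, against 86 genes over the whole array. At an unadjusted p under 0.05 by limma, 5 genes of the list were lower at day 6, against 1047 of all 19938 genes.

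Within the KO mice, 20 of the 37 genes were higher at day 9 than at day 6 and 2 lower, against 10% and 14.5% of all genes. Smooth muscle markers moved over the same days, with 3 of 10 called higher in KO at day 9 than at day 6 and a median change of 1.00. With their mean as a covariate 16 genes in place of 20 were called higher, without Pgam1 (0.42), Epas1 (0.58), Egln3 (0.67) and Ndrg1 (0.72). With no covariate the changes were 0.57 for Pgam1, 0.54 for Epas1, 0.64 for Egln3 and 0.68 for Ndrg1. The change was thus smaller with the covariate for Pgam1 alone of these genes. From day 9 to day 12, 7 were higher and 17 lower, against 14.1% and 8.81% of all genes, with a median change of -0.29 for the list and -0.03 for all genes. Both comparisons share the KO arrays of day 9 with each other and with the KO against WT comparison of that day. Genes lower at day 12 than at day 9 in KO included Hk2 (-1.51, limma adjusted p = 0.000507), Bnip3 (-0.92), Egln3 (-0.91), Slc16a3 (-0.91), Pgam1 (-0.77) and Hif1a (-0.63, with limma adjusted p = 0.0549 in a fit of the 4 arrays compared). Those higher included Ndrg1 (1.80, limma adjusted p = 0.00013), Gbe1 (1.09) and Epas1 (0.68, or 0.58 with no call without KO day 9 replicate 1). With KO day 9 replicate 1 left out 3 genes in place of 7 were called higher from day 9 to day 12, and 4 without KO day 12 replicate 2. In WT mice none of the 37 genes was called for a change over the 3 days by limma's F test, against 0.0201% of all genes. At an unadjusted p under 0.05 in that F test, 5 of the 37 genes passed, against 2003 of all 19938 genes.

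The KO minus WT difference itself depended on the day for 23 of the 37 genes (limma F test of genotype by day), against 18.5% of all genes. These were all 4 HIF alpha subunits and prolyl hydroxylases, 9 of the 12 other targets, 5 of the 13 glycolytic enzymes, 2 of the 3 regulators, 2 of the 3 carriers and 1 of the 2 glycogen enzymes. Fam162a (limma adjusted p = 4.8e-06), Bnip3 (8.14e-05 by limma) and Pgk1 (0.000124 by limma) had the smallest adjusted p. Between days 6 and 9 the difference grew for 17 of the 37 genes and shrank or turned lower for 1, against 3.52% and 9.19% of all genes. The difference of the smooth muscle markers grew over the same days by a median of 1.79, with 4 of 10 called, and with their mean as a covariate 17 of the 37 genes in place of 23 were called in the F test. Between days 9 and 12 it moved up for 3 and down for 11, against 4.06% and 2.02% of all genes. Averaged over the 3 days 19 genes were called higher and 5 lower, against 15.7% and 16.9% of all genes.

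Around these genes a wider list of 106 genes of the same pathways was examined, of which 98 were measured. At day 9, 19 were called higher and 32 lower in KO, and at day 12, 19 and 27. These counts stand against the shares of all genes given above, 12.6% and 17.1% at day 9 and 13.7% each at day 12. The median difference was 0.01 at day 9 and 0.02 at day 12, close to the 0.02 of all genes on both days.

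Slc5a1, Slc2a2 and Slc2a5, sugar carriers of the absorptive cell, ran opposite to Slc2a1 at day 9. All 8 further genes listed with the hexose and monocarboxylate carriers were called lower at day 9, and 6 at day 12. They include Bsg, which is not itself a carrier. Slc5a1, the sodium-coupled glucose carrier of the brush border, had 10.64 and 11.14 in KO at day 9, against 12.79 and 12.83 in WT. Slc2a2 (GLUT2), the basolateral glucose exit, had 9.41 and 10.32 in KO at day 9, against 11.97 and 12.26 in WT, and Slc2a5 (GLUT5), the fructose carrier, had 7.33 and 8.19 in KO, against 9.96 and 10.38 in WT. The KO arrays were below the WT arrays for all 3. The day 9 differences were -1.92 for Slc5a1 (SE 0.20), -2.25 for Slc2a2 (SE 0.43), -2.41 for Slc2a5 (SE 0.36) and -1.76 for Slc37a4, the glucose 6-phosphate carrier of the endoplasmic reticulum (SE 0.12), with limma adjusted p from 1.29e-06 to 0.00231. At day 12 Slc2a2 differed by -1.37 but by -0.50, with no call, without KO day 12 replicate 1.

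Genes of gluconeogenesis and fructose metabolism showed the same direction, with 5 of 8 genes lower and 1 higher on each of days 9 and 12. Khk, the ketohexokinase of fructose breakdown, had 7.53 and 7.33 in KO at day 9, against 10.55 and 10.72 in WT (-3.20, SE 0.23, limma adjusted p = 2.04e-06), and differed by -2.65 at day 12. Pck1, the cytosolic PEP carboxykinase, had 6.21 and 6.33 in KO at day 12, against 10.22 and 9.51 in WT (-3.60, SE 0.36, limma adjusted p = 1.83e-05), after -2.59 at day 9. KO was far below WT for both. Fbp1, fructose bisphosphatase 1, had 5.14 and 4.71 in KO at day 9, against 6.84 and 7.26 in WT, and G6pc, the glucose 6-phosphatase, had 4.62 and 4.84 in KO, against 8.03 and 8.55 in WT. These KO signals lay below 5.30, the level under which the dimmest 30% of genes lie, and no fold is given for them. Pck2, the mitochondrial form, was higher by 0.46 at day 12 and Tkfc, a triokinase, by 0.40 at day 9, a call that ended without either KO array (0.39 and 0.41) or WT replicate 1 of that day (0.30).

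Pyruvate entry here stands for pyruvate dehydrogenase, its kinases and phosphatases and the mitochondrial pyruvate carrier gene Mpc1. Of these 9 genes, 7 were lower and 1 higher at day 9, and 5 and 1 at day 12. Pdk2 and Pdk3, the kinases that inhibit pyruvate dehydrogenase, fell by 2.60 (SE 0.15) and 1.49 (SE 0.15) at day 9, Pdp2, an opposing phosphatase, by 1.78 (SE 0.13), and Pdha1, a subunit of the enzyme itself, by 1.07 (SE 0.10). Pdp1, the other phosphatase, had 8.94 and 8.83 in KO at day 12, against 7.49 and 7.39 in WT, a difference of 1.45 (SE 0.09, limma adjusted p = 4.7e-07). Kinases and phosphatases were thus both among the genes that fell. Of 10 further glycolytic isozymes, 3 were lower at day 9 and 2 at day 12, and none was called higher by limma, with 1 and 2 at an unadjusted p under 0.05. Hkdc1, a hexokinase-like gene, fell by 1.70 at day 12 (SE 0.11), Eno3, the muscle enolase, by 1.30, and Bpgm, the bisphosphoglycerate mutase, by 0.53 at day 9.

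**Figure D5:**
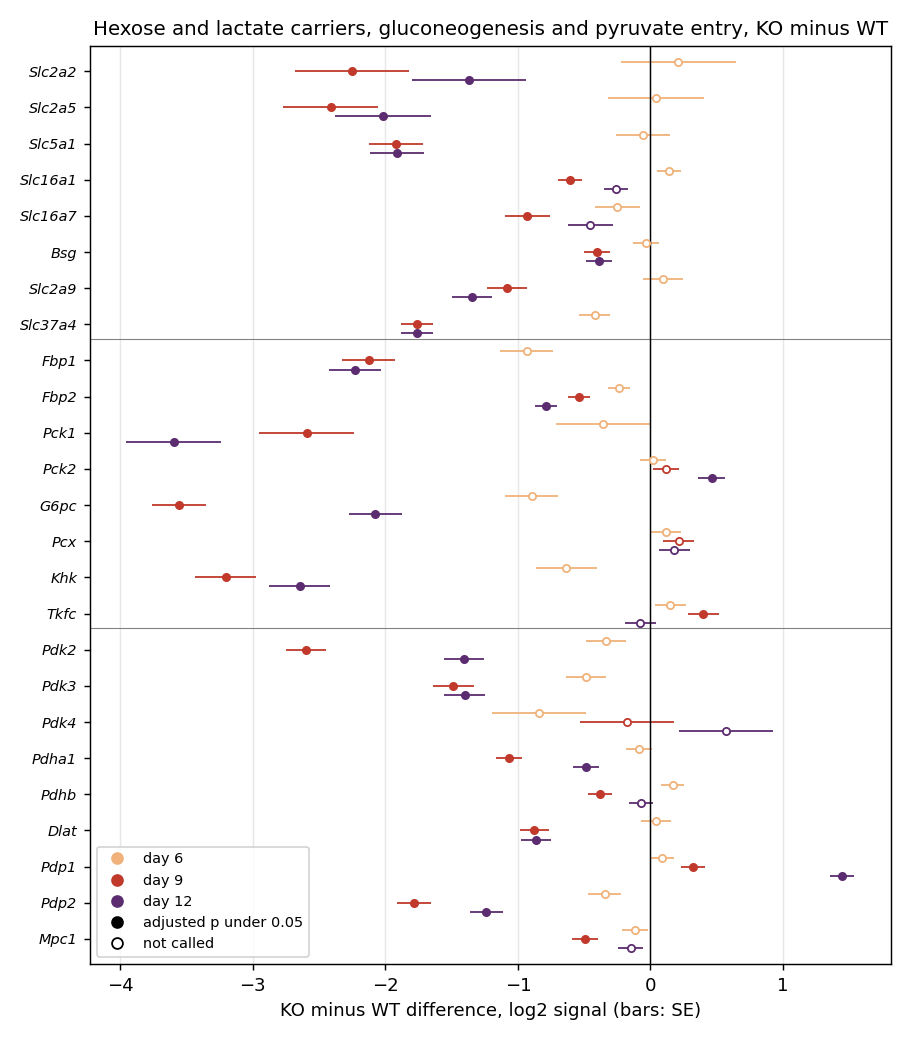
KO minus WT difference in log2 signal (horizontal axis) of 25 pathway genes outside the 40, at days 6, 9 and 12. SE bars are from limma on 2 mice per group. From the top stand carriers with Bsg, gluconeogenesis and fructose metabolism, and pyruvate entry. Filled points were called, open ones were not; at days 9 and 12 most filled points lie left of 0, from Bsg near -0.40 to Pck1 at -3.60, and Pdp1, Pck2 and Tkfc have filled points right of 0.

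The pentose phosphate pathway had 4 of 6 genes higher and 1 lower at day 9, and 1 each at day 12. Tkt, transketolase, had 10.85 and 10.78 in KO at day 9, against 9.69 and 9.71 in WT (1.11, SE 0.11, limma adjusted p = 2.68e-05), and was higher by 1.07 at day 12. Pgd, 6-phosphogluconate dehydrogenase, rose by 0.64 at day 9, Pgls by 0.53 and Taldo1, transaldolase, by 0.51. The Pgls call ended without KO day 9 replicate 1 (0.47) or WT day 9 replicate 2 (0.45), and that of Taldo1 without KO day 9 replicate 1 (0.43) or WT day 9 replicate 1 (0.45). Rpia, the ribose 5-phosphate isomerase, fell by 0.61 at day 12 and Rpe, the epimerase, by 0.53 at day 9. In glycogen turnover, 1 of 9 genes was higher at day 9 and 3 at day 12, led by Pgm1, a phosphoglucomutase (0.87 at day 9), Ugp2, which makes UDP-glucose (0.72 at day 12), and Gyg, the glycogenin primer (0.50 at day 12).

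Among 10 further HIF pathway regulators, 3 were higher and 2 lower at day 9, and 3 and 0 at day 12. Arnt2, a second partner of the alpha subunits, had 8.12 and 7.83 in KO at day 9, against 6.26 and 6.05 in WT, and at day 12 it had 7.82 and 7.81 in KO, against 6.21 and 6.20 in WT. Hif3a, an alpha subunit whose products can restrain the others, had 6.15 in both KO arrays at day 9, against 5.38 and 5.39 in WT, and at day 12 it had 6.55 and 6.47 in KO, against 5.31 and 5.46 in WT. Both stood above WT on both days, by 1.82 and 1.61 for Arnt2 (SE 0.12 each) and by 0.77 and 1.13 for Hif3a (SE 0.10 each). Arnt itself fell by 0.51 at day 9 (SE 0.10) and Cited2, a HIF-induced inhibitor of HIF, by 0.73 (SE 0.14). Egln2 was higher by 0.42 at day 9 with an adjusted p of 0.0408 in limma, which passed 0.05 in 8 alternatives (0.32 without KO day 9 replicate 1), and Siah1a by 0.42 at day 12, or 0.32 with no call without KO day 12 replicate 2.

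Of 38 further HIF targets, 9 were higher and 6 lower at day 9, and 10 and 8 at day 12. Hmox1, heme oxygenase 1, had 7.72 and 7.57 in KO at day 9, against 6.08 and 6.11 in WT, and at day 12 it had 8.03 and 7.73 in KO, against 5.86 and 6.05 in WT. Ddit4, an inhibitor of mTORC1 signalling, had 9.35 and 9.23 in KO at day 9, against 7.77 and 7.58 in WT. Hmox1 rose by 1.54 and 1.92 at days 9 and 12 (SE 0.13 each) and Ddit4 by 1.61 and 1.50 (SE 0.21 each). Lox, which crosslinks collagen, and Edn1, the vasoconstrictor endothelin 1, rose at day 12 by 1.65 (SE 0.22) and 1.50 (SE 0.14). Narf fell by 1.74 at day 9 (SE 0.20), Selenbp1, a selenium-binding protein, by 1.25 at day 12 (SE 0.12) and Tfrc, the transferrin receptor, by 0.92 at day 12 (SE 0.13). Nos2, the inducible nitric oxide synthase, fell by 1.34 at day 12 (limma adjusted p = 0.0379), with values from -2.05 to -0.63 over the fits with 1 array left out and no call in 11 alternatives.

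Markers of cell types moved beside these genes. The counts of called markers stand against 12.6% higher and 17.1% lower among all genes at day 9, and 13.7% each at day 12. Relative to their WT mean, 11 enterocyte markers averaged -0.76 and -0.68 in the KO arrays of day 9 and -1.20 and -0.96 in those of day 12, against -0.16 to 0.07 over the 6 WT arrays. Of these 11, 4 were called lower and 0 higher at day 9, and 5 lower and 1 higher at day 12. The median KO minus WT difference of the 11 was -0.17 at day 9 and -0.52 at day 12. The lowest single difference was -5.59 and -6.32, so the mean is pulled down by the lowest values. Fibroblast markers (6 genes) stood at 0.59 and 0.43 in the KO arrays of day 9 and 0.79 and 0.60 in those of day 12, against -0.45 to 0.25 in WT, with 3 of 6 called higher on each day. Neutrophil markers (6 genes) stood at 0.45 and 0.64 in the KO arrays of day 9 and 0.58 and 0.54 in those of day 12, against -0.11 to 0.07 in WT. Of the 6, 4 were called higher at day 9 and 1 at day 12. Their median KO minus WT difference was 0.49 at day 9 and 0.16 at day 12, and the highest was 1.15 and 2.60. S100a8, Mpo, Csf3r and Cxcr2 of them lay below the dim level of 5.30 over the 12 arrays. T cell markers (5 genes) stood at -0.98 and -0.59 in the KO arrays of day 9 and -1.01 and -0.98 in those of day 12, against -0.27 to 0.25 in WT, with 3 of 5 called lower on each day. Endothelial markers (6 genes) stayed between -0.19 and 0.14 in KO, against -0.18 to 0.16 in WT, with 1 of 6 called lower at day 9. Macrophage markers (6 genes) stood at 0.28 and 0.28 in the KO arrays of day 9 and 0.15 and 0.06 in those of day 12, against -0.14 to 0.12 in WT, with 1 called higher at day 9 and 2 higher and 2 lower at day 12. Smooth muscle markers (10 genes) stood at 0.34 and -0.83 in the KO arrays of day 9 and 0.96 and 0.33 in those of day 12, against -0.77 to 0.61 in WT, with 0 of 10 called by limma in KO against WT on any day. At an unadjusted p under 0.05, 9 of the 10 were lower in KO at day 6, 0 passed at day 9 and 1 was lower at day 12. The part of these shifts in the differences of the hypoxia and glycolysis genes was not tested.

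The arrays had medians between 5.95 and 6.02 on the log2 scale, and the correlation across genes between both arrays of a group was 0.992 to 0.997. Cep43, the targeted gene, was called lower in KO at day 9 (-0.39, limma adjusted p = 0.0184) and averaged over days (-0.26, limma adjusted p = 0.00713). It was not called at day 6 (-0.31, limma adjusted p = 0.267) or at day 12 (-0.09, limma adjusted p = 0.638), where its signals overlapped, with 6.97 and 6.74 in KO, against 6.83 and 7.04 in WT. Its probe set may lie outside the deleted part, so this checks the labels only weakly. Markers of enterocytes and of goblet and Paneth cells were all above the dim level.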

How the data were processed

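Per the labels' protocols, RNA of whole intestinal tissue was labelled with biotin and hybridised to Affymetrix Mouse Gene 1.0 ST arrays. The authors deposited log2 signal values of 35556 probe sets for 12 arrays, used here unchanged. The tools limma and R 3.5 are named in the submitters' processing notes; how the background was corrected and the arrays normalised is not given in the sources used here. Of the probe sets, 21789 carried 1 symbol in the platform annotation, and the brightest of a gene was kept (19938 genes).

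One mean per group was fitted over all 12 arrays (limma 3.58.1, R 4.3.3), with moderated variances on 6 residual and 5.23 prior degrees of freedom. Adjustment was by Benjamini-Hochberg over the 19938 genes. All tests were two-sided, and the fit was tested on simulated data. The p-values of limma set each difference against the spread between mice within groups, moderated with the spread of all genes. An exact test of 2 mice against 2 cannot go below 0.333. That of the difference averaged over days, with all 216 relabellings within days, cannot go below 0.00926. Precision is limited by the number of arrays, with a median SE of 0.12 at 1 day.

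The genes, the wider pathway list and the cell type markers were chosen with earlier results of these data known, so no list was tested as a set. Values of every array are given for Hif1a, Epas1, Egln1 and Egln3 and, per role, for up to 6 genes called at day 9 or 12 with the largest differences. From the wider list up to 4 called genes per direction and sublist were named. Alternatives were the scaling, a filter on dim genes, the variance model, the choice of probe set, a block for the replicate number, the 4 arrays of a comparison alone, a smooth muscle covariate and each array left out. The choice of probe sets with RefSeq accessions was added after seeing the data. Promoter windows were those of RefSeq for GRCm38.p6.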

Additional observations from a re-analysis of the deposited data

Results flagged for a closer look

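For 23 of the 37 measured genes the KO minus WT difference itself differed between days by limma's F test of genotype by day, adjusted over all genes; for each, the larger of the 2 changes between neighbouring days is given on the log2 scale. From day 6 to day 9 the difference grew by 3.46 for Fam162a, 2.42 for Bnip3, 2.00 for Hk2, 1.39 for Ankrd37, 1.35 for Slc2a1, 1.35 for Higd1a, 1.28 for Pgk1, 1.28 for Pfkl and 1.23 for Slc16a3. It grew by 0.94 for P4ha1, 0.82 for Adm, 0.77 for Epas1, 0.75 for P4ha2 and 0.73 for Egln1, and moved by -1.14 for Mxi1 and -0.96 for Pfkfb3. From day 9 to day 12 it grew by 2.01 for Ndrg1 and 0.73 for Gbe1. Over the same days it moved by -1.13 for Egln3, -0.88 for Pgam1, -0.86 for Hif1a, -0.53 for Pdk1 and -0.52 for Pkm. The adjusted p of the F test ran from 4.8e-06 for Fam162a to 0.0496 for Pdk1. In limma's test of the single change, those given for Pfkfb3 (adjusted p = 0.196) and Pdk1 (adjusted p = 0.0902) did not pass, and the others did.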

How the results depend on the processing

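Of the genes called in KO against WT, 21 of 24 at day 9 and 14 of 21 at day 12 kept their call in every alternative run, and no called difference changed sign. Those that lost a call in at least 1 alternative were Pgam1, Pdk1 and Adm at day 9 and Hk2, Pfkp, Pgam1, Gys1, Adm, Bnip3 and P4ha2 at day 12, with both calls of day 6. Averaged over days, 19 genes were called higher and 5 lower, and 21 of the 24 held; those of Pfkfb3, Car9 and P4ha1 did not. Changes within KO between days held for 16 of 22 calls at day 9 against day 6 and 11 of 24 at day 12 against day 9. With the smooth muscle covariate 0 genes were called higher at day 6, in place of 2, and 1 in place of 2 lower in KO at day 9 against day 6. With the mean of a gene's probe sets 1 gene was called lower at day 6, in place of 0. With only the 4 arrays compared, 3 in place of 5 were called lower at day 12, and 4 and 10 in place of 7 and 17 were called higher and lower in KO at day 12 against day 9. The cause of these changes was not tested.

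With each array left out in turn, the number called was 0 to 3 higher and 0 lower at day 6, 18 to 20 higher and 3 to 4 lower at day 9, and 12 to 16 higher and 3 to 5 lower at day 12. It was 17 to 19 higher and 4 to 6 lower averaged over days, 17 to 21 higher and 1 to 3 lower in KO at day 9 against day 6, 3 to 6 higher and 12 to 17 lower in KO at day 12 against day 9, and 18 to 23 for the interaction. In the wider list it was 13 to 22 higher and 30 to 33 lower at day 9, and 14 to 23 higher and 24 to 27 lower at day 12. Calls lower at day 12 numbered 3 without either WT array of that day.

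Arrays of the same replicate number in KO and WT deviated together with correlations of 0.18, -0.09 and 0.11 at days 6, 9 and 12. These correlations are low, but with 2 mice per group they cannot exclude a pairing, and the main fit used none. With the replicate number as a block, 101 in place of 205 of all genes were called at day 6. With the replicate block, Hk2 (limma adjusted p = 0.0501) and Gys1 (0.0844) lost their calls at day 12, leaving 14 in place of 16 higher, and no other call in KO against WT changed among the 37 genes. With 2 mice per group, a gene that misses the threshold is not shown to be alike in KO and WT.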
